A study of Mus musculus with 12 samples.

Results

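The genes described here are 10 components of interleukin-6 (IL-6) and oncostatin M receptor signalling in the mouse heart: the receptor chains Osmr, Lifr, Il6st, Il6ra and Il11ra1, the ligand gene Ctf1, the kinases Jak1 and Jak2, and the inhibitors Socs3 and Socs2. They were listed by name, matched through their Ensembl identifiers, and followed in all 12 libraries. They are 10 of 49315 genes in the count tables, and all 10 were among the 15476 genes that passed the filter on low counts. Each library was made from total RNA of the heart of a female wild-type mouse of strain C57BL/6 (C57BL/6J in the feeding protocol), aged 27 to 29 weeks at collection. There were 4 groups of 3 libraries: Western diet postpartum, control diet postpartum, Western diet nonpregnant and control diet nonpregnant. The Western diet held 45% of its energy as fat and 17% as sucrose, and the control diet held 10% of its energy as fat. Mice ate their diet for 15 weeks, and were then either bred and collected 1 day after delivery, or kept on the same diet unbred for as long. The Western diet was meant as a model of an early metabolic syndrome. The design therefore asks how diet, recent pregnancy and both together are related to heart expression.

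Cytokines of the IL-6 family signal through receptor complexes that share the chain gp130, which Il6st encodes. IL-6 binds the chain encoded by Il6ra and IL-11 the chain encoded by Il11ra1, and each complex then signals through gp130. Oncostatin M uses gp130 paired with the chain encoded by Osmr, and leukemia inhibitory factor and cardiotrophin-1 use gp130 paired with the chain encoded by Lifr. The receptors carry Janus kinases, which phosphorylate STAT3, and STAT3 induces Socs3, whose product blocks the receptor complex in turn. In the heart the family is known for cardiomyocyte survival and hypertrophy, and oncostatin M for cardiomyocyte dedifferentiation.

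Library totals were 22754591 to 29492416 counts, so that 3 counts, the upper limit of a count of 0, were 0.102 to 0.132 CPM (counts scaled to the library's size after TMM normalization), for counting error only. Cardiomyocyte markers (Myh6, Actc1, Tnnt2, Tnni3, Ryr2 and Pln) were counted in every library and summed to 56600 to 69600 CPM. The library labelled control diet postpartum replicate 3 carried fat genes: 6 adipocyte markers summed to 0.481 to 3.31 CPM in the Western diet postpartum libraries, against up to 194 CPM in the control diet postpartum libraries, the highest being this one. This library and control diet nonpregnant replicate 1 were found to stand apart in earlier work on these data. The labels do not say whether the 3 libraries of a group came from separate animals, so p-values measure the spread between libraries, which may be partly technical. These are libraries of whole heart tissue, in which fewer cells of a type and less RNA per cell cannot be told apart. Fold changes below are on the log2 scale with their standard error, and a gene is called where edgeR's quasi-likelihood test gave a Benjamini-Hochberg adjusted p under 0.05 over all 15476 genes.

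Levels per length differed widely among the genes, measured as CPM per kilobase of the gene's exons (RPKM). Jak1 had the highest median over the 12 libraries, 22.6 RPKM, followed by Il6st with 17.7 RPKM and Il11ra1 with 13.1 RPKM. Jak2, Lifr and Socs2 formed a middle group with medians of 6.04, 5.33 and 4.97 RPKM. Ctf1 had 3.32 RPKM, Socs3 2.23 RPKM, Osmr 1.98 RPKM and Il6ra 0.729 RPKM. The ranges over libraries of Jak1 (18.1 to 32.6 RPKM) and Il6st (17.0 to 22.6 RPKM) overlapped, as did those of Jak2, Lifr and Socs2, and those of Socs3 (1.37 to 3.93 RPKM) and Osmr (1.63 to 3.38 RPKM). Il6ra lay below every other gene in all 12 libraries, at 0.556 to 0.886 RPKM, and rests on 124 to 225 counts a library. The ratio of the highest to the lowest library, in CPM, was largest for Socs3 (2.88) and Osmr (2.08) and smallest for Jak2 (1.23) and Il11ra1 (1.27).

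**Figure D1:**
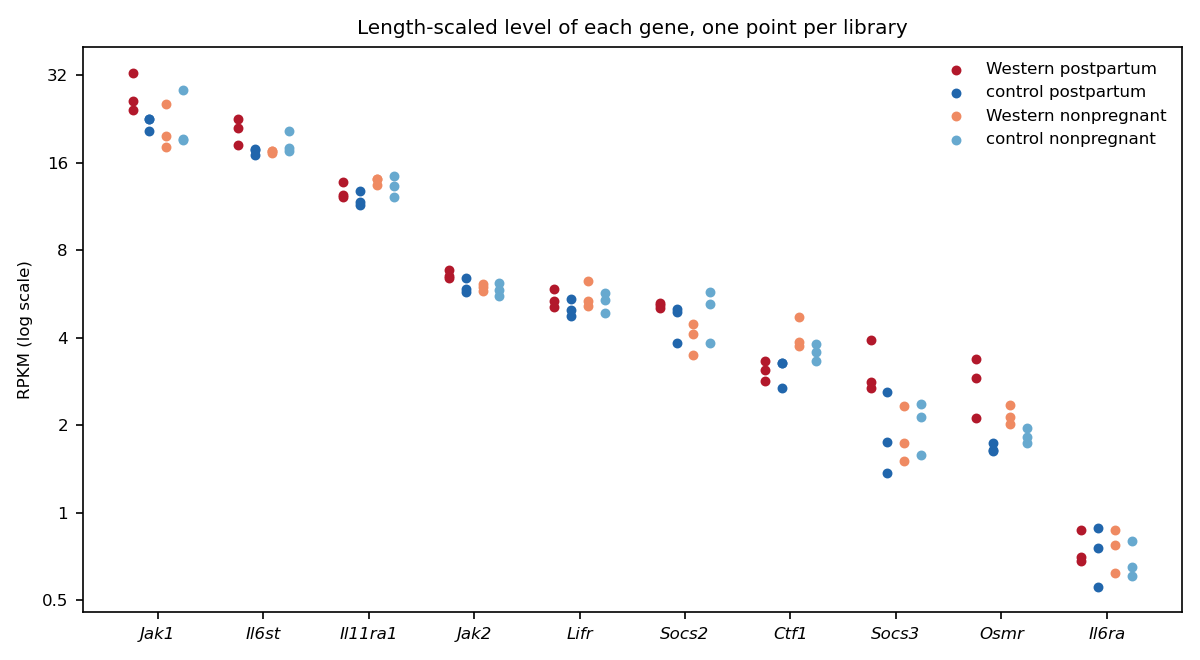
Level of each gene in RPKM (log axis), one point per library, coloured by group and ordered by median. Jak1 and Il6st lie at the top, Il6ra lies apart at the bottom, and the Western diet postpartum points of Osmr and Socs3 spread upward from the rest.

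Osmr, the chain that makes the complex specific to oncostatin M, rose in Western diet postpartum hearts. It had 40.9, 25.6 and 35.3 CPM in the 3 Western diet postpartum libraries, against 19.7, 19.8 and 20.9 CPM in the control diet postpartum libraries. In nonpregnant hearts it had 24.3, 28.3 and 25.8 CPM on Western diet and 22.1, 20.9 and 23.7 CPM on control diet. Every Western diet library was above every control diet library of the same pregnancy state, and Western diet postpartum replicate 2 lay well below the other two of its group, inside the range of the Western diet nonpregnant hearts. Group means were 33.9 ± 7.74 CPM in Western diet postpartum hearts, against 20.2 ± 0.673 CPM in control diet postpartum hearts, and 26.1 ± 2.01 CPM in Western diet nonpregnant hearts, against 22.2 ± 1.41 CPM in control diet nonpregnant hearts (SD, n = 3 each). The gene lies on chromosome 15, at 6813577 to 6874969 on the minus strand of GRCm38 (ENSMUSG00000022146), and overlaps no other gene of the files.

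Between Western diet and control diet postpartum hearts, Osmr was higher by 0.75 ± 0.13 (95% interval 0.48 to 1.03; adjusted p = 0.0141, edgeR), the 49th smallest p of all genes. It was the only 1 of the 10 called, where 0.879% of all genes were called. Against control diet nonpregnant hearts, Western diet postpartum hearts had Osmr higher by 0.61 ± 0.13 (0.33 to 0.89; adjusted p = 0.0266), where 2.62% of all genes were called. Averaged over both pregnancy states, Osmr was higher on Western diet by 0.49 ± 0.09 (0.30 to 0.69; adjusted p = 0.0177), and again it was the only 1 of the 10 called, with 1.38% of all genes called. These comparisons share libraries, and are not independent evidence of each other. In nonpregnant hearts alone the difference was 0.24 ± 0.13 (-0.04 to 0.51; adjusted p = 0.604). On Western diet, postpartum hearts differed from nonpregnant hearts by 0.38 (0.10 to 0.65; adjusted p = 0.194), and on control diet by -0.14 (-0.42 to 0.14; adjusted p = 0.717).

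Whether the diet difference of Osmr was itself larger postpartum was tested as an interaction, which gave 0.52 ± 0.18 (0.12 to 0.91; adjusted p = 0.460), so a difference between the pregnancy states was not called. Between the postpartum groups the call was lost without Western diet postpartum replicate 3 (0.72, adjusted p = 0.0884), without control diet postpartum replicate 1 (0.73, adjusted p = 0.0567), and where only these 6 libraries were fitted (adjusted p = 0.0616). All genes called were then 33, 79 and 71, against 136 in the main fit. The Osmr call held without the library that carried fat genes (0.78, adjusted p = 0.0446), in which Osmr had 20.9 CPM.

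Lifr, the gp130 partner for leukemia inhibitory factor and cardiotrophin-1, lies 254589 bases from Osmr on chromosome 15 (7129559 to 7197489, plus strand), with 1 predicted gene between them. It had 55.1, 60.7 and 52.6 CPM in Western diet postpartum hearts, against 49.0, 51.3 and 55.8 CPM in control diet postpartum hearts, with overlap. The difference was 0.11 (-0.08 to 0.30; adjusted p = 0.631), which does not show that the groups are alike but bounds a difference at 0.30. In nonpregnant hearts it had 52.9, 64.7 and 55.0 CPM on Western diet and 50.1, 55.6 and 58.6 CPM on control diet, again overlapping.

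The ratio of Osmr to Lifr, both per length, was 0.633, 0.360 and 0.572 in Western diet postpartum hearts, against 0.343, 0.330 and 0.320 in control diet postpartum hearts. Its mean was 0.522 ± 0.144 in Western diet postpartum hearts, against 0.331 ± 0.012 in control diet postpartum hearts (SD, n = 3 each), and the groups did not overlap (two-sided exact permutation p = 0.1, the smallest that 3 against 3 allows; 0.25 adjusted over 10 tests). The ratio of Osmr to Il6st was 0.160, 0.115 and 0.129 in Western diet postpartum hearts, against 0.096, 0.092 and 0.098 in control diet postpartum hearts. In nonpregnant hearts that ratio was 0.114, 0.136 and 0.122 on Western diet, against 0.089, 0.099 and 0.109 on control diet, also without overlap. Both of these comparisons gave the same exact permutation p of 0.1, adjusted to 0.25, so neither could pass a threshold of 0.05.

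**Figure D2:**
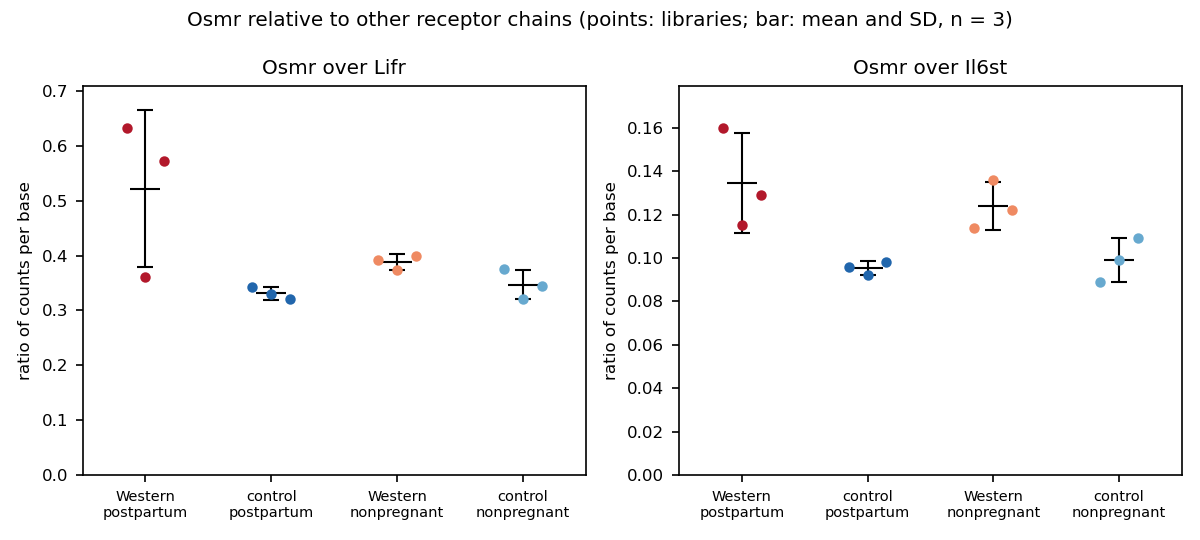
Ratio of Osmr to Lifr (left) and to Il6st (right), each as counts per base of exon, by group; points are libraries, bars the mean and SD of 3. Western diet libraries lie above control diet libraries of the same pregnancy state in the Il6st panel. In the Lifr panel 2 of the 3 Western diet postpartum libraries stand at 0.572 or more, and the nonpregnant groups overlap.

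Il6st, which encodes the shared chain gp130 (chromosome 13, 112464070 to 112510086, plus strand), had 234, 205 and 250 CPM in Western diet postpartum hearts, against 188, 198 and 196 CPM in control diet postpartum hearts. All 3 Western diet libraries lay above all 3 control diet libraries, with replicate 2 closest to them. The difference was 0.24 ± 0.08 (0.08 to 0.41; adjusted p = 0.151), and was not called. Western diet nonpregnant hearts had 195, 191 and 194 CPM and control diet nonpregnant hearts 228, 194 and 199 CPM, so the highest nonpregnant library, control diet replicate 1, lay within the range of the Western diet postpartum hearts. Western diet postpartum against nonpregnant hearts gave 0.25 (0.08 to 0.41; adjusted p = 0.158), and the interaction 0.34 (0.11 to 0.58; adjusted p = 0.434). Without Western diet postpartum replicate 2, Il6st was called against control diet postpartum hearts (0.32, adjusted p = 0.0331) and against Western diet nonpregnant hearts (0.32, adjusted p = 0.0309). All genes called then also rose, from 136 to 490 and from 91 to 472.

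Il6ra, the IL-6 binding chain (chromosome 3, 89864059 to 89913196, minus strand), had 7.51, 5.91 and 6.08 CPM in Western diet postpartum hearts, against 7.66, 4.80 and 6.52 CPM in control diet postpartum hearts, which overlapped (0.04, -0.35 to 0.42; adjusted p = 0.959). At 5.21 to 7.53 CPM the nonpregnant libraries lay in the same range, and no comparison called it. Il11ra1, the IL-11 binding chain, had 55.3, 61.2 and 54.6 CPM in Western diet postpartum hearts, against 52.1, 57.2 and 50.8 CPM in control diet postpartum hearts, also overlapping. Averaged over diets Il11ra1 was 0.14 lower postpartum on the log2 scale (-0.14, -0.25 to -0.02; adjusted p = 0.188), and this was not called. Il11ra1 shares its span on chromosome 4 (41699989 to 41769474, plus strand) with 6 other genes, 5 of them on the opposite strand, and has a near copy, Il11ra2, so its counts are uncertain.

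**Figure D3:**
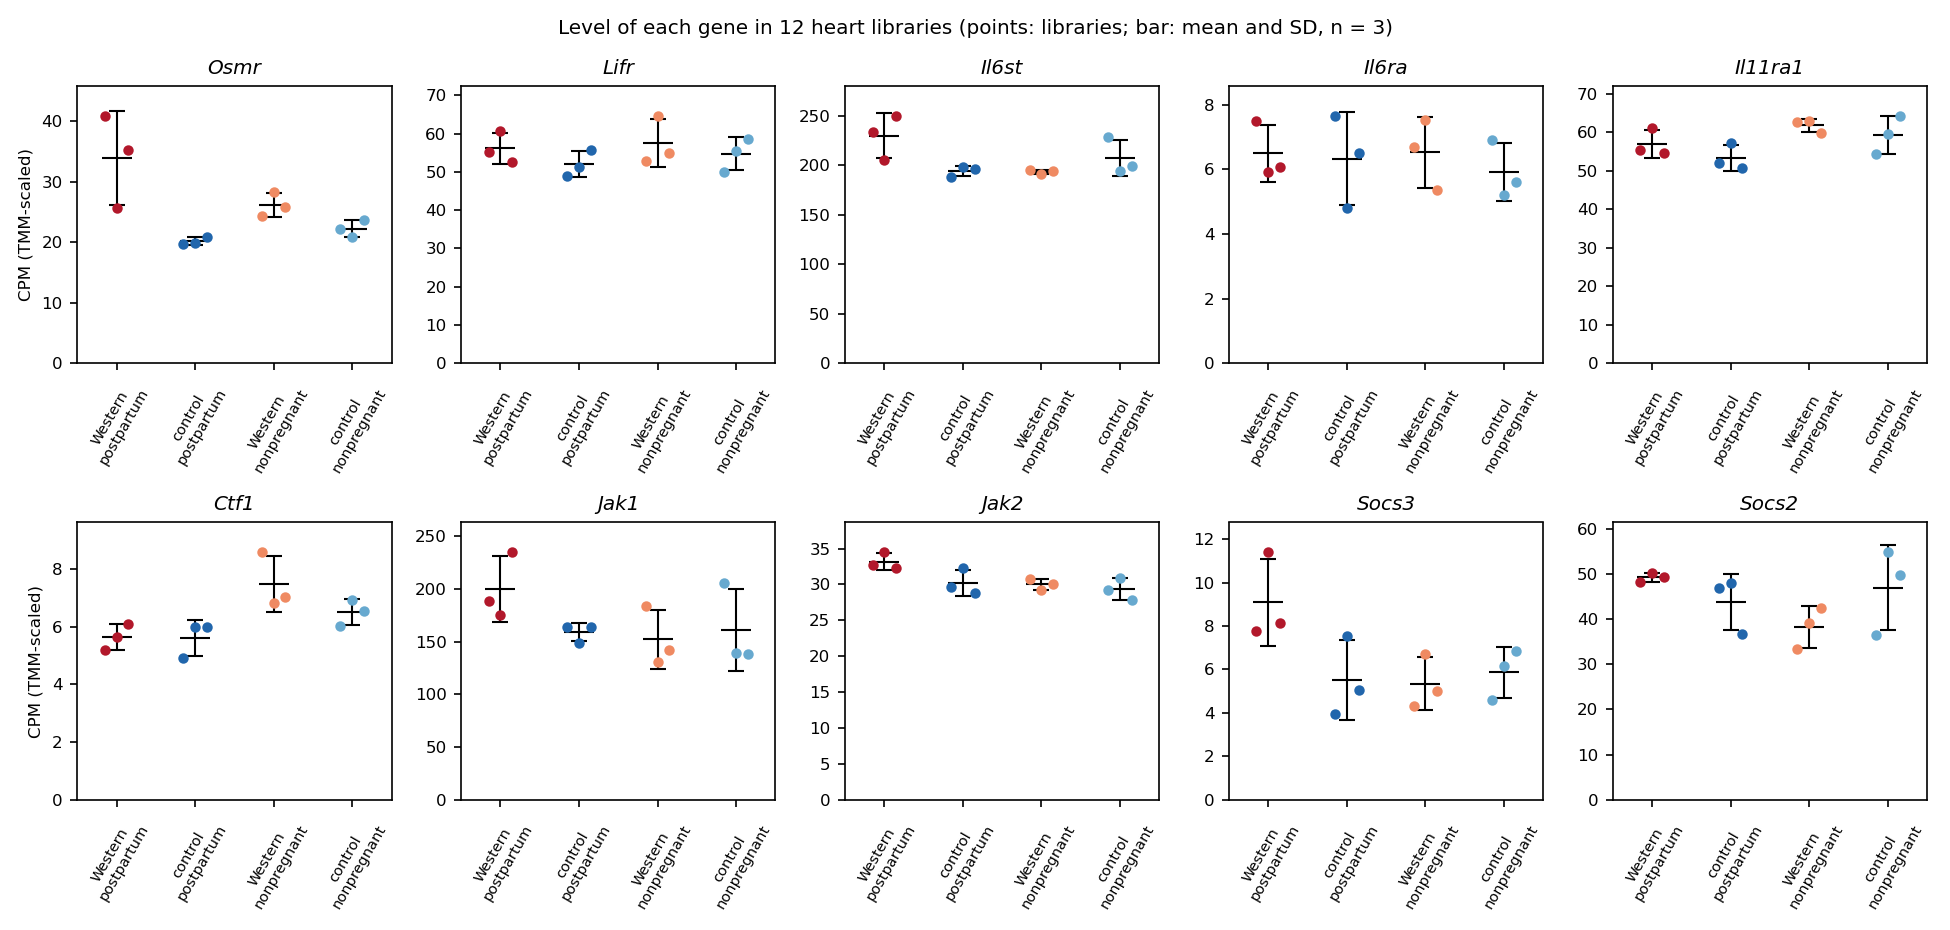
Level of each of the 10 genes in CPM by group; points are libraries, bars the mean and SD of 3, and each axis starts at 0. In the Osmr panel the lowest Western diet postpartum point, 25.6 CPM, is above all control diet points, and in the Socs3 panel all 3 Western diet postpartum points, 7.75 to 11.4 CPM, are above all other points.

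Ctf1 encodes cardiotrophin-1, a ligand of the gp130 and LIF receptor pair that makes cardiomyocytes grow. It had 5.18, 5.64 and 6.08 CPM in Western diet postpartum hearts, against 8.58, 6.81 and 7.04 CPM in Western diet nonpregnant hearts. Control diet postpartum hearts had 4.90, 5.97 and 5.97 CPM, against 6.03, 6.93 and 6.53 CPM in control diet nonpregnant hearts. On each diet every postpartum library was below every nonpregnant library, on control diet by a narrow margin. The differences were -0.41 ± 0.13 on Western diet (-0.68 to -0.13; adjusted p = 0.161) and -0.21 on control diet (-0.48 to 0.06; adjusted p = 0.530). Averaged over diets the difference was -0.31 ± 0.09 (-0.50 to -0.12; adjusted p = 0.0962), and Ctf1 was not called. It rests on 127 to 200 counts a library, and the gene (chromosome 7, 127712736 to 127718192, plus strand) overlaps the related Ctf2 on the opposite strand.

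The other ligands were low or absent at this depth. Of 10 further ligand genes, 4 passed the filter on low counts, and no comparison called any. Il6 had 7 counts in all over the Western diet postpartum libraries and 6 over the control diet postpartum libraries, against 2 over the Western diet nonpregnant and 1 over the control diet nonpregnant libraries. Osm, the oncostatin M gene, had 8, 11, 13 and 11 counts over the same 4 groups, and Il11 had 7, 4, 9 and 9. These sums of 3 libraries are too small to show or exclude a difference. Lif had 0.0858, 0.151 and 0.211 CPM in Western diet nonpregnant hearts, against 0.357, 0.420 and 0.408 CPM in control diet nonpregnant hearts (-1.34 ± 0.42, adjusted p = 0.326). The groups did not overlap, and 7.84% of all genes were lower without overlap there. These values rest on 2, 4 and 6 counts, against 10, 10 and 9, so they too are near the limit of counting. Between the postpartum groups Lif differed by -0.77 (adjusted p = 0.334) and Clcf1 by -0.12 (adjusted p = 0.846). Of the further receptors, Cntfr differed by 0.22 (adjusted p = 0.774) and Il27ra by -0.03 (adjusted p = 0.966).

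Neither kinase gene was called in any comparison. Jak1 lies on chromosome 4 (101152367 to 101265282, minus strand), where it overlaps 3 other genes, and Jak2 on chromosome 19 (29251828 to 29313080, plus strand). Jak1 had 189, 175 and 235 CPM in Western diet postpartum hearts, against 164, 149 and 164 CPM in control diet postpartum hearts, without overlap (0.33 ± 0.16, -0.01 to 0.67; adjusted p = 0.355). Nonpregnant hearts ranged from 131 to 184 CPM on Western diet and from 138 to 206 CPM on control diet, so the groups overlapped there. Jak2 had 32.7, 34.5 and 32.3 CPM in Western diet postpartum hearts, against 30.8, 29.2 and 30.0 CPM in Western diet nonpregnant hearts, without overlap (0.14, 0.00 to 0.28; adjusted p = 0.326). In control diet hearts Jak2 was at 28.8 to 32.3 CPM postpartum and 27.9 to 30.9 CPM nonpregnant. Between Western diet and control diet postpartum hearts the Jak2 interval was -0.01 to 0.27 (adjusted p = 0.373).

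Socs3, the STAT3 target whose protein binds gp130 and blocks it, lies on chromosome 11 (117966079 to 117970047, minus strand). It had 7.75, 11.4 and 8.13 CPM in Western diet postpartum hearts, against 3.95, 7.52 and 5.06 CPM in control diet postpartum hearts. Western diet nonpregnant hearts had 4.33, 6.70 and 5.00 CPM, and control diet nonpregnant hearts 4.57, 6.17 and 6.85 CPM. All 3 Western diet postpartum libraries were above the other 9, though replicate 1 exceeded the highest of those by little. The differences were 0.73 ± 0.24 against control diet postpartum (0.22 to 1.23; adjusted p = 0.162), 0.76 ± 0.24 against Western diet nonpregnant (0.25 to 1.27; adjusted p = 0.159) and 0.64 against control diet nonpregnant (0.13 to 1.15; adjusted p = 0.169). None was called. The estimate was close to that of Osmr, with a wider interval.

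The upstream sequence of Socs3 is shown because the gene is known as a direct STAT3 target, beside that of Il6st as the shared chain with no match. The motif searched was TTCNNNGAA, which reads the same on both strands, in the 250 bases before each RefSeq start (GRCm38.p6). Of the 10 genes 9 had a promoter in the RefSeq-based set used, in 11 windows, and only the Socs3 window held the motif, marked in capitals. The set held no promoter of Socs2, which was not searched. It was found in 7.02% of 32851 promoters. A match is a description of letters and not a bound site. The Socs3 stretch is chr11:117969452-117969616 on the minus strand, 165 bases long, inside the Socs3 span of the files, and the Il6st stretch is chr13:112463820-112464069 on the plus strand, 250 bases long.
Socs3: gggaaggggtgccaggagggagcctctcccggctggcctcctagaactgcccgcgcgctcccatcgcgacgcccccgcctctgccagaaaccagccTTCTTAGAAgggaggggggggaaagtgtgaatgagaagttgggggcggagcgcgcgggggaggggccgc
Il6st: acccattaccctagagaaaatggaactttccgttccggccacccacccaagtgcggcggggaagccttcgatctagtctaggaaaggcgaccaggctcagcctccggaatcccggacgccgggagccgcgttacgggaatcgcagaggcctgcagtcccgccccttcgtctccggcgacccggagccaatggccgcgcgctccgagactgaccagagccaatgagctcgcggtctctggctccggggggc

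Socs2 (chromosome 10, 95385362 to 95417180, minus strand) encodes an inhibitor that mainly restrains growth hormone and prolactin receptor signalling through STAT5. It had 48.3, 50.1 and 49.2 CPM in Western diet postpartum hearts, against 46.8, 47.9 and 36.6 CPM in control diet postpartum hearts, and was higher in every Western diet library. Western diet nonpregnant hearts had 33.3, 39.2 and 42.5 CPM, against 36.4, 54.8 and 49.7 CPM in control diet nonpregnant hearts, with overlap. The Western diet postpartum libraries were also above all Western diet nonpregnant libraries (0.36, 0.06 to 0.65; adjusted p = 0.243). The interaction was 0.46 (0.04 to 0.87; adjusted p = 0.512), and no comparison called Socs2. Of 4 further genes of the growth hormone and prolactin axis none was called between the postpartum groups, where Ghr, the growth hormone receptor, differed by -0.24 (adjusted p = 0.231), Bcl6, a repressor, by 0.40 (adjusted p = 0.236) and Igf1 by -0.25 (adjusted p = 0.544).

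The 10 genes were chosen with earlier results of these data known, so counts over them are a description and not independent evidence. Across the 10 genes, 10 had a positive difference between Western diet and control diet postpartum hearts (median 0.15), where 49.9% of all genes did. The smallest, those of Ctf1 and Il6ra, changed sign when a library was left out. In 5 of the 10 (Osmr, Il6st, Jak1, Socs3 and Socs2) all Western diet libraries were higher, against 9.85% of all genes, and 3 of 10 had an unadjusted p under 0.05, against 14.6%. In Western diet against control diet nonpregnant hearts 6 of 10 were positive (median 0.04), against 49.9% of all genes. None was called there, at an unadjusted p under 0.05 there was also none of the 10, DESeq2 and limma-voom called 0, and 0.0582% of all genes were called. Osmr alone had groups that did not overlap in that comparison, being higher on Western diet, as did 6.92% of all genes. An unadjusted p under 0.05 was reached by 9.58% of all genes.

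In control diet postpartum against nonpregnant hearts 2 of 10 were positive (median -0.09), against 48.2% of all genes. None of the 10 was called, where 0.239% of all genes were. No gene of the 10 had an unadjusted p under 0.05 there, against 12.5% of all genes. Ctf1 alone did not overlap and was lower, against 8.96% of all genes. DESeq2 and limma-voom called 0 of the 10. In Western diet postpartum against nonpregnant hearts none of the 10 was called, where 0.588% of all genes were, but 7 had an unadjusted p under 0.05, against 14.7% of all genes. Of these, Osmr, Il6st, Jak1, Jak2, Socs3 and Socs2 were higher and Ctf1 was lower postpartum. Il6st, Jak2, Socs3 and Socs2 did not overlap between those groups and were higher, against 10.1% of all genes, and Ctf1 was lower, against 9.51%. The postpartum effect averaged over diets called none of the 10 and 1.78% of all genes. At an unadjusted p under 0.05 it held Ctf1 and Il11ra1, both lower, against 17.6% of all genes. Western diet postpartum against control diet nonpregnant hearts had 8 of 10 positive (median 0.14), against 49.6% of all genes. There Osmr, Jak2 and Socs3 had an unadjusted p under 0.05, against 18.2% of all genes. The same genes did not overlap and were higher, against 10.3% of all genes. For the diet effect averaged over pregnancy states Osmr was also the only 1 with an unadjusted p under 0.05, against 14.3% of all genes. The interaction called no gene by edgeR (0% of all genes; DESeq2 called 30), and at an unadjusted p under 0.05 it held Osmr, Il6st, Socs3 and Socs2, against 8.98% of all genes.

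**Figure D4:**
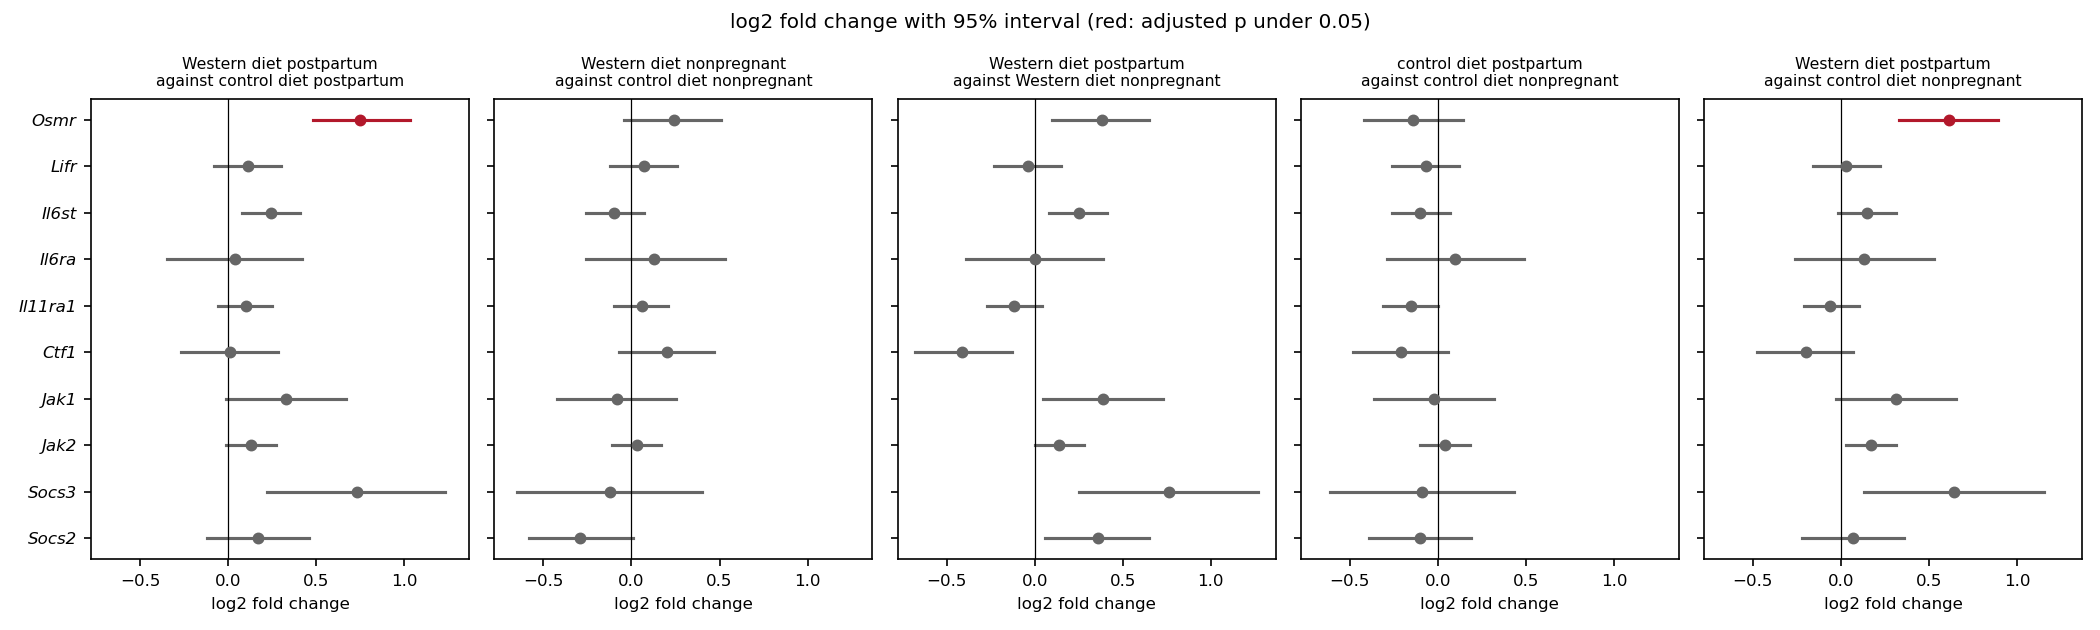
Log2 fold change of each gene with its 95% interval in 5 comparisons, with adjusted p under 0.05 in red. Osmr is red in the 2 comparisons of Western diet postpartum hearts with control diet hearts (0.75 and 0.61), and every other interval is grey.

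Western diet postpartum replicate 2 was the lowest of its group for Osmr, Il6st, Jak1 and Il6ra. It was the highest for Socs3, Jak2, Lifr, Il11ra1 and Socs2, so Osmr and Il6st were not highest in the library in which Socs3 was. Its fibroblast marker sum was also the lowest of the group (1870 CPM, against 2370 and 2070 CPM). The same held for endothelial markers (845 CPM, against 991 and 952 CPM). Smooth muscle and pericyte, macrophage and monocyte, and adipocyte sums were lowest there too, and cardiomyocyte and lymphocyte sums highest. The part of these cells in the results was not tested. Without replicate 2, Osmr was called between Western diet postpartum and nonpregnant hearts (0.54, adjusted p = 0.00697) and in the interaction (0.67, adjusted p = 0.0386). All genes called then also rose, from 91 to 472 and from 0 to 53. The Socs3 difference from control diet postpartum hearts was 0.53 without replicate 2 (adjusted p = 0.287). By root mean square difference of centred log2 CPM over the 12 libraries, among 13349 genes, the patterns most like that of Osmr were those of Acer2 (0.09), Dpep1 (0.11) and Harbi1 (0.12), against a standard deviation of Osmr itself of 0.33.

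Of 65 further genes of the pathway, 56 passed the filter on low counts. None was called in Western diet against control diet postpartum hearts, with 16 at an unadjusted p under 0.05, where 0.879% of all genes were called and 14.6% had such a p. In Western diet postpartum against nonpregnant hearts 2 rose, none fell, and 15 had an unadjusted p under 0.05, where 0.588% of all genes were called and 14.7% had such a p. Stat3, the transcription factor downstream of gp130, had 186, 155 and 198 CPM in Western diet postpartum hearts, against 113, 132 and 118 CPM in Western diet nonpregnant hearts, without overlap (0.57 ± 0.10, 0.35 to 0.79; adjusted p = 0.0281). In control diet hearts Stat3 had 150, 160 and 162 CPM postpartum, against 124, 156 and 151 CPM nonpregnant, with overlap (0.13, adjusted p = 0.627). The Stat3 interaction was 0.44 (adjusted p = 0.434), and the effect averaged over diets was 0.35 ± 0.07 (adjusted p = 0.0267). The Western diet call was lost without any 1 of 5 of its 6 libraries, among them Western diet postpartum replicate 1 (adjusted p = 0.125), and held without replicate 2. Without any 1 of those 5 libraries, 0 to 7 of all genes were called, against 91 with all libraries and 472 without replicate 2.

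Ccl2, a chemokine gene that draws monocytes and was listed as a STAT3 and acute-phase target, had 4.33, 7.61 and 3.85 CPM in Western diet postpartum hearts, against 2.15, 1.51 and 1.27 CPM in Western diet nonpregnant hearts. The groups did not overlap, and Ccl2 was higher postpartum by 1.69 ± 0.31 (1.02 to 2.36; adjusted p = 0.0311). Control diet hearts had 2.59, 4.18 and 3.05 CPM postpartum, against 2.18, 1.60 and 3.08 CPM nonpregnant. The Western diet call held in 8 of 14 alternatives, and was lost without any 1 of the same 5 libraries, where 0 to 7 of all genes were called. Macrophage and monocyte markers summed to 159 to 196 CPM in Western diet postpartum hearts, against 143 to 169 CPM in Western diet nonpregnant hearts, and their part in the result was not tested.

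Against control diet nonpregnant hearts, Western diet postpartum hearts had 2 of these 56 genes called, both higher, where 2.62% of all genes were called. Il4ra, an interleukin-4 receptor chain, had 23.0, 20.0 and 19.1 CPM in Western diet postpartum hearts, against 14.4, 12.9 and 14.6 CPM in control diet nonpregnant hearts (0.57 ± 0.11; adjusted p = 0.0184). Tnfrsf12a, the receptor of the cytokine TWEAK, had 148, 42.4 and 89.9 CPM in Western diet postpartum hearts, against 33.0, 39.3 and 33.2 CPM in control diet nonpregnant hearts (1.41 ± 0.33; adjusted p = 0.0384). Its replicate 2 lay close to the control diet libraries, and without replicate 1 the difference was 0.91 (adjusted p = 0.173). Averaged over diets, Stat3, Il4ra (0.33, adjusted p = 0.0457), Ccl2 (1.10, adjusted p = 0.0260) and Tnfrsf12a (1.10, adjusted p = 0.0312) were called higher postpartum, 4 of 56, where 1.78% of all genes were called. Of 20 alternatives, the averaged call held in 14 for Stat3 and for Ccl2 and in 9 for Il4ra and for Tnfrsf12a. In the same comparison 2 of 8 macrophage and monocyte markers were also called higher, and their part in these results was not tested.

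Of the 23 listed STAT3 and acute-phase targets 22 were tested. The list was chosen with earlier results of these data known, so its counts are a description and not independent evidence. Between Western diet postpartum and nonpregnant hearts 21 targets were positive with a median of 0.53, and Hp, a plasma haptoglobin gene, was the exception. Of all genes 49.3% were positive there, with a median of 0.00. Leaving out Western diet nonpregnant replicate 1 left 17 targets positive. Hp was uneven within groups, at 0.303 to 3.24 CPM in Western diet nonpregnant and 0.170 to 15.7 CPM in control diet postpartum hearts. The liver markers Alb, Apoa1 and Ttr summed to 0.858 to 23.1 CPM and 1.77 to 16.4 CPM in these 2 groups. In Western diet postpartum hearts they summed to 0.856 to 2.37 CPM, and their part in the Hp values was not tested. Between control diet postpartum and nonpregnant hearts 16 were positive with a median of 0.19, and 13 without control diet postpartum replicate 1. Between Western diet and control diet postpartum hearts 17 were positive with a median of 0.35, and between the nonpregnant groups 11 were positive with a median of -0.01. Of all genes 48.2%, 49.9% and 49.9% were positive in these comparisons, in that order. The comparisons share libraries. Myc (1.35, adjusted p = 0.111) and Bcl3 (0.66, adjusted p = 0.100) were next after the genes named above in Western diet postpartum against nonpregnant hearts. Myc also gave 1.04 (adjusted p = 0.186) and Bcl3 0.51 (adjusted p = 0.175) between the postpartum groups.

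**Figure D5:**
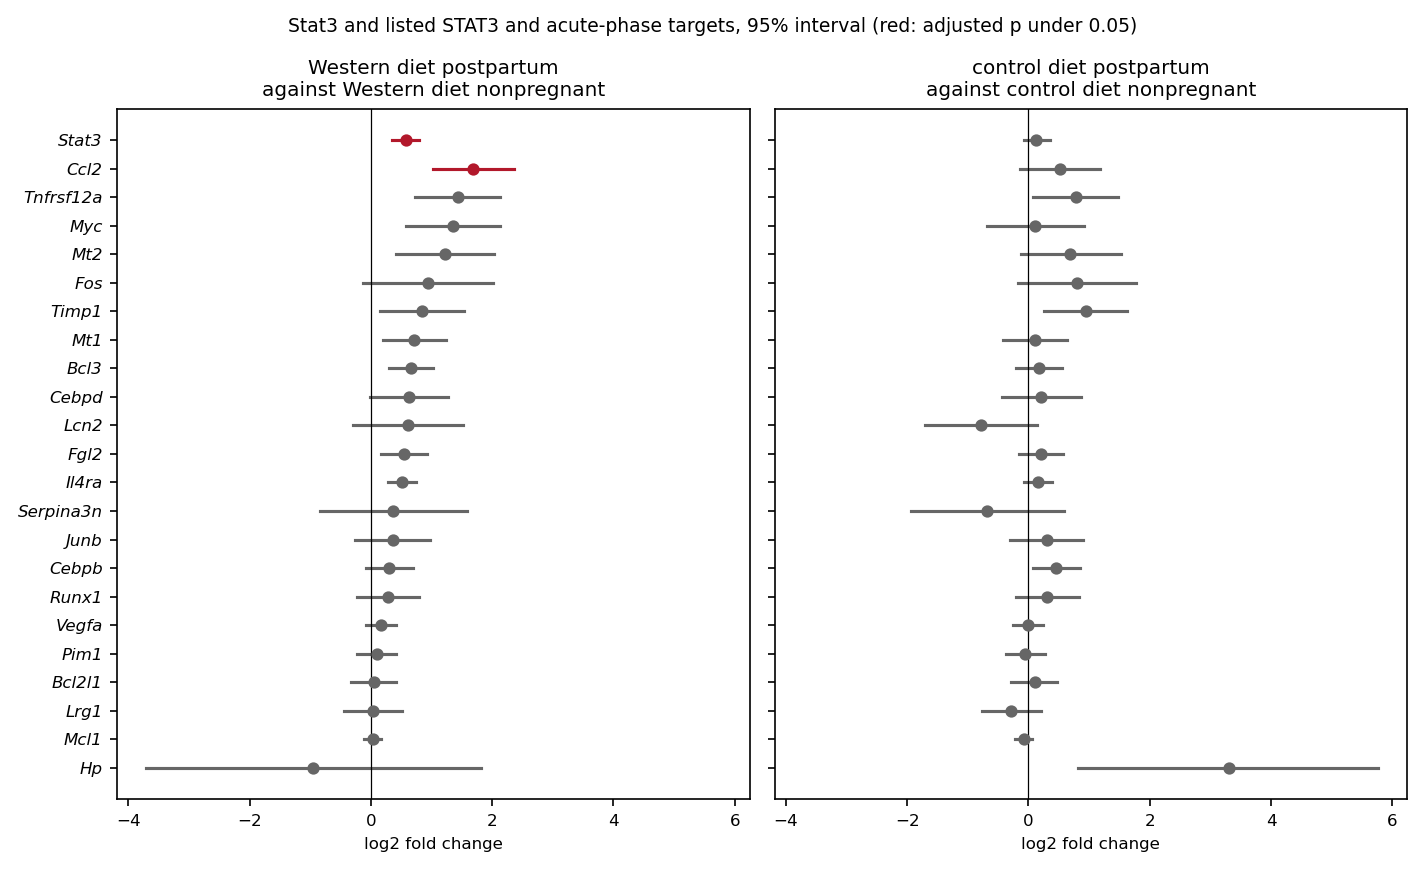
Log2 fold change with 95% interval of Stat3 and 22 listed STAT3 and acute-phase targets, postpartum against nonpregnant hearts on Western diet (left) and on control diet (right), with adjusted p under 0.05 in red. On Western diet Stat3 (0.57) and Ccl2 (1.69) are red and 21 of the 22 targets lie right of 0; on control diet none is red.

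The adaptors, phosphatases and remaining inhibitors held no called gene between the postpartum groups. Ptpn11, the phosphatase SHP2 that gp130 recruits, differed by 0.36 (adjusted p = 0.314), Grb2, an adaptor, by -0.18 (adjusted p = 0.206), and Adam17, a protease that sheds receptors, by -0.18 (adjusted p = 0.258). Pias1, an inhibitor of STAT signalling, differed by 0.16 (adjusted p = 0.291), and Stat5b by 0.15 (adjusted p = 0.199). Values of other cell types beside these results were as follows. Fibroblast markers, 6 of 6 counted in all libraries, summed to 1870 to 2370 CPM in Western diet postpartum hearts, against 1820 to 2120 CPM in control diet postpartum hearts. Endothelial markers summed to 845 to 991 CPM in Western diet postpartum hearts, against 841 to 850 CPM in control diet postpartum hearts. Both sets of ranges overlapped, with no endothelial or fibroblast marker called. The fibroblast sum was mostly Gsn, with means of 1460 CPM in Western diet and 1290 CPM in control diet postpartum hearts. Of the fibroblast markers, 4 of 6 had a positive difference. At an unadjusted p under 0.05, 3 of 6 endothelial markers were higher, and 2 of 6 fibroblast markers were lower and none higher. Of all genes 0.879% were called and 14.6% had such a p, in either direction. Against control diet nonpregnant hearts the Western diet postpartum endothelial sum of 845 to 991 CPM did not overlap the 766 to 814 CPM of the control diet hearts. There 5 of 6 endothelial markers were higher without overlap, against 10.3% of all genes. Called were 1 endothelial marker and 1 of 6 fibroblast markers, both higher, and 1 of 6 cardiomyocyte markers, lower, where 2.62% of all genes were called. In the diet effect averaged over pregnancy states, 2 of 6 endothelial markers were called higher, where 1.38% of all genes were called. Osmr was called in both of these comparisons. No marker was at 0 in all libraries, and the part of these markers in the Osmr result was not tested.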

How the data were processed

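The authors deposited raw counts of reads per gene for 12 heart libraries, without normalization. Per the labels' protocols, a Qiagen RNeasy kit gave the RNA and a NEBNext Ultra kit the libraries. The submitters' processing notes name FastQC, STAR 2.5.2b, Subread 1.5.2 with featureCounts, and GRCm38 (mm10). Strand setting and annotation release were not given in the sources used here, and overlapping genes may share counts. Identifiers without a symbol (345 of 49315) took 0.0218% to 0.0248% of counts and stayed in the tests.

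Low counts were removed by filterByExpr in edgeR 4.0.16 (R 4.3.3) with a minimum of 10 and a total of 15, leaving 15476 genes, and TMM scaled the libraries. CPM uses these scaled sizes, and RPKM divides CPM by the exon length given in the files. One model with 4 group means was fitted to the 12 libraries (common biological variation 9.62%). The quasi-likelihood F test of edgeR, two-sided, was applied to 8 contrasts, with Benjamini-Hochberg adjustment within each. A log2 fold change has as its standard error its size over the square root of F. The procedure was tested on simulated data.

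Alternatives were DESeq2 1.42.0, limma-voom (limma 3.58.1), other filters, scalings and robust fitting, a fit of the compared groups alone, each library left out, and both doubted libraries left out. The members, the gene lists, the markers and the rule for named genes were chosen with earlier results of these data known. All 10 members are named, with every called pathway gene, up to 3 of smallest p per list, and the ligands Il6, Osm, Lif and Il11. Some listed genes stayed in all tests and counts but are not reported here. Sequences come from a set of RefSeq promoters of GRCm38.p6 that held none for Socs2.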

Additional observations from a re-analysis of the deposited data

How the results depend on the processing

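No called value changed direction. Of 80 differences of the members, 20 changed sign under some alternative, none of them called, and the largest of these was 0.12 in size. Without a filter on low counts, the members called were 3 between the postpartum groups, 1 between the nonpregnant groups, 4 between the Western diet groups, 3 for Western diet postpartum against control diet nonpregnant, 4 for the interaction and 2 for the averaged postpartum effect. All genes called were then 1048, 454, 933, 1315, 506 and 1262 of 29761 tested, in the same order. The main fit called 136, 9, 91, 406, 0 and 276 of 15476, and the cause was not tested. With only the compared groups fitted, no member was called in Western diet postpartum hearts against either control diet group (0 and 0). All genes called were then 71 against control diet postpartum and 136 against control diet nonpregnant. Without both doubted libraries, 0 members were called for Western diet postpartum against control diet nonpregnant, where 457 of all genes were called, against 406 in the main fit. Leaving out each library in turn gave 0 to 2 members between the postpartum groups and between the Western diet groups, and 0 to 1 for Western diet postpartum against control diet nonpregnant, for the interaction and for the averaged diet effect. Elsewhere it gave 0. The Osmr call held in 12 of 15 alternatives between the postpartum groups (0.59 to 0.91), in 9 of 15 against control diet nonpregnant (0.45 to 0.78) and in 17 of 20 for the averaged diet effect (0.41 to 0.58). Against control diet nonpregnant it was lost without Western diet postpartum replicate 1 (0.45, adjusted p = 0.111), as it was without Western diet postpartum replicate 3 and without control diet nonpregnant replicates 2 and 3. All genes called there were 87 to 146, against 406. The averaged call was lost without Western diet postpartum replicate 3, Western diet nonpregnant replicate 2 or control diet nonpregnant replicate 2. All genes called were then 105, 83 and 100, against 214. DESeq2 called 437 genes between the postpartum groups, 89 between the nonpregnant groups, 354 between the Western diet groups and 30 in the interaction, against 136, 9, 91 and 0 by edgeR. No paired analysis was possible because the replicate numbers were given in accession order and pair no libraries. With 3 libraries a group, the wider spread of Socs3 left its difference not called, and Il6, Osm, Lif and Il11 are limited by their counts.

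The differences that changed sign did so mostly when libraries were left out, with these ranges. Between the postpartum groups, Ctf1 gave -0.09 to 0.06 (-0.01 without a filter), Il6ra -0.13 to 0.19, Cntfr -0.14 to 0.37, Clcf1 -0.25 to 0.05 and Il27ra -0.14 to 0.11. Between the nonpregnant groups, Socs3 gave -0.31 to 0.01, Lifr -0.02 to 0.13, Jak1 -0.24 to 0.14 and Jak2 0.00 to 0.07. Between the control diet groups, Jak1 gave -0.12 to 0.20 (0.00 by limma-voom), Il6ra -0.06 to 0.26, Socs3 -0.36 to 0.11 and Socs2 -0.25 to 0.03. Between the Western diet groups, Il6ra gave -0.13 to 0.11 (0.01 by limma-voom), Lifr -0.10 to 0.05 and Hp -1.42 to 1.09. For Western diet postpartum against control diet nonpregnant, Lifr gave -0.03 to 0.09, Socs2 -0.09 to 0.20 and Il11ra1 -0.12 to 0.00. For the interaction, Lifr gave -0.03 to 0.14, Il11ra1 -0.02 to 0.09 and Il6ra -0.27 to 0.05. Socs2 gave -0.19 to 0.00 for the averaged diet effect, and Il6ra -0.03 to 0.13 for the averaged postpartum effect.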
